A study of Mus musculus with 4 samples.

Results

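A set of 9 genes that mark gamma-delta T cells was followed in RNA of CD4+ T cells cultured toward T follicular helper (Tfh) cells: the constant genes Trdc, Tcrg-C1, Tcrg-C2 and Tcrg-C4, the variable segments Trdv4 and Trgv2, the transcription factor genes Sox13 and Zbtb16, and the surface receptor gene Cd163l1. They were picked by symbol among 54752 rows of the count table because Trdc was known to be much higher in the knockout libraries, so that their levels in these same libraries are given as a description, with no test. Of the 9 genes, 6 had enough counts to enter the fit of 14330 genes, and Trdv4, Zbtb16 and Cd163l1 did not.

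Naïve CD4+ T cells were taken from the spleen of WT mice or of Mek1/2-tKO mice, which carry Cd4-Cre and are homozygous for floxed alleles of Map2k1 (fl/fl) and of Map2k2 (fl/fl), the genes of the kinases MEK1 and MEK2. The floxed lines were made on a C57BL/6 background, and the study names littermates as its WT controls. The Cre is driven by Cd4, which thymocytes switch on as they mature, so that deletion is limited to cells with a history of Cd4 expression. The cells of both genotypes were stimulated through CD3 and CD28 under Tfh-polarizing conditions, and viable cells were sorted on day 3 for RNA sequencing, in 2 libraries per genotype. The age of the mice in these libraries and whether the libraries came from separate mice are not given in the sources used here, so the spread between libraries may be technical.

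T cells carry either an alpha-beta or a gamma-delta receptor. Both are put together from V, J and, for the beta and delta chains, D segments joined to a constant gene, the delta segments lie inside the alpha locus, and the mouse gamma locus holds several clusters that each pair their own V and J segments with a constant gene. Gamma-delta T cells leave the thymus in waves that differ in V segment, and many are programmed there to make IL-17 or IFN-γ. RNA of gamma and delta constant genes is not exclusive to these cells, since other lymphocytes, NK cells and innate lymphoid cells among them, can transcribe the unrearranged or rearranged loci. In RNA of a whole culture, more cells of a type and more RNA per cell cannot be told apart.

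The libraries held 16330802 to 18931090 counts, and a gene with no count in a library could still stand at 3 counts there, or at 0.154 to 0.194 CPM (counts scaled to a library of a set size), by counting error alone. This limit, like the counting intervals below, takes each count as a separate fragment. Whether the reads of a pair were counted once or separately is not given in the sources used here. If separately, the limit is too low and the intervals are too narrow. Levels are CPM with TMM scaling, and a gene was called when its adjusted p was under 0.05 at a fold change of at least 1.5 (edgeR's quasi-likelihood test, Benjamini-Hochberg adjustment). Of the targeted genes, Map2k1 was lower in Mek1/2-tKO (log2 fold change -0.86, standard error 0.08) and Map2k2 was not called (0.15, standard error 0.08, adjusted p = 0.126 by edgeR). The cell type label was checked on marker genes. Cd4 RNA was at 293 ± 5.35 CPM (SD, n = 2) in WT libraries but at 22.0 ± 4.48 CPM in those of Mek1/2-tKO, while Cd8a was at 33.2 ± 3.14 and 139 ± 12.1 CPM. The summed level of 12 B-lineage genes lay at 1541 to 1569 CPM in WT and at 8473 to 8628 CPM in Mek1/2-tKO. The libraries labelled Mek1/2-tKO therefore held little of the RNA that names the cell type of their label, and both libraries of that genotype did so.

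The gamma constant genes are near copies of each other, which bears on how a uniquely mapped read can be placed. The opening of the first constant exon is therefore shown for the 4 gamma genes (GRCm38, chr13, 120 bases each, 5′ to 3′ on the gene's strand, exons of GENCODE M21), with capitals where a base differs from Tcrg-C1. The stretches lie at chr13:19214103-19214222 on the plus strand, chr13:19307432-19307551 on the minus strand, chr13:19260885-19261004 on the plus strand and chr13:19344558-19344677 on the plus strand.
Tcrg-C1: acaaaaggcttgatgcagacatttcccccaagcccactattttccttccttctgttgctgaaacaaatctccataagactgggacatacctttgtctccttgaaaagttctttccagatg
Tcrg-C2: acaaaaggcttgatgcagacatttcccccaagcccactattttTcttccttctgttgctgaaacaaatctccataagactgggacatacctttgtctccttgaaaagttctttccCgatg
Tcrg-C3: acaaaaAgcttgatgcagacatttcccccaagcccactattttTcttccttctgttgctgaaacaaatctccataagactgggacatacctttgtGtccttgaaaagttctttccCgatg
Tcrg-C4: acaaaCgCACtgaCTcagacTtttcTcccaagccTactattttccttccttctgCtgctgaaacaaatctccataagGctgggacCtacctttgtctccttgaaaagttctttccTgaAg

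Over the whole 330 bases of that exon, Tcrg-C2 differs from Tcrg-C1 at 9 positions (97.3% identity), with a longest shared run of 71 bases. Tcrg-C3 differs from Tcrg-C1 at 13 positions (96.1%), and its longest shared run is 90 bases. Tcrg-C4 is the most distant of these, with 59 differences (82.1%). Between Tcrg-C2 and Tcrg-C3 the longest shared run is 88 bases. A stretch of read that falls wholly in such a shared run cannot be given to a gene by sequence alone. Reads of the full sequenced length are longer than these runs, so those lying within this exon cover a differing base. Reads shortened by trimming or running into another exon may not, and the other exons were not compared. The values of Tcrg-C1, Tcrg-C2 and Tcrg-C3 are uncertain to that extent.

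Near copies are also found among the gamma V segments. The end of the V exon, which codes for the part next to the joint, is shown for Trgv2 (chr13:19336573-19336692, minus strand), Tcrg-V1 (chr13:19340335-19340454, plus strand) and Tcrg-V3 (chr13:19243182-19243301, plus strand), with capitals where a base differs from Trgv2.
Trgv2: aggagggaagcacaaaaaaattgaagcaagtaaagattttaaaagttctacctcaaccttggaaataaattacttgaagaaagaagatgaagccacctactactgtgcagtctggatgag
Tcrg-V1: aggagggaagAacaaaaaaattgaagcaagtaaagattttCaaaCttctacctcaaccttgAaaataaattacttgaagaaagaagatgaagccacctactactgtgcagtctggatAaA
Tcrg-V3: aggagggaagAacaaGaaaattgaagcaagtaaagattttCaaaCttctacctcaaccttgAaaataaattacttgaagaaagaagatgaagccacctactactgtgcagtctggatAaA

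Tcrg-V1 shares 95.1% of the V exon with Trgv2 and Tcrg-V3 shares 94.5%, whereas Tcrg-V4 shares 68.2%. In the printed stretch Tcrg-V1 differs from Trgv2 at 6 bases and Tcrg-V3 at 7, and Tcrg-V3 has all those of Tcrg-V1. Reads of Tcrg-V1 and Tcrg-V3 cannot be told apart where their bases are the same, and their counts are uncertain to that extent. The delta constant gene has no such copy among the rows followed here, and its opening 120 bases (chr14:54142851-54142970, plus strand) are given for comparison, with no capitals.
Trdc: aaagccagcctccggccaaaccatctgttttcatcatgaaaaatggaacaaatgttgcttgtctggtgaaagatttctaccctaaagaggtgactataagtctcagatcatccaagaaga

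Trdc (ENSMUSG00000104876.1, chr14:54142851-54148868), the only constant gene of the delta chain, had 1.64 and 1.56 CPM in the WT libraries and 57.9 and 53.6 CPM in the Mek1/2-tKO libraries. These levels rest on 32 and 30 counts in WT and on 897 and 1006 counts in Mek1/2-tKO. Both knockout libraries lay far above both WT libraries, and the libraries of a genotype lay close together. The fitted log2 fold change was 5.12 (standard error 0.17), a ratio of the mean levels of 34.9. Genes on the other strand, Trdv5 among them, share 7.84% of the exon bases of Trdc.

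Tcrg-C4 (ENSMUSG00000076757.9, chr13:19344558-19352756), the constant gene that works with Tcrg-V1, had 0.924 and 0.830 CPM in the WT libraries, against 49.1 and 47.9 CPM in the knockout. At a log2 fold change of 5.78 (standard error 0.19) it showed the largest difference of the 6 genes that entered the fit. Its replicates lay about as close together as those of Trdc, in both genotypes.

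Tcrg-C2 (ENSMUSG00000076752.2, chr13:19304649-19307551), the constant gene of the inverted cluster that holds Trgv2, had 2.77 and 1.40 CPM in the WT libraries, against 59.2 and 46.0 CPM in the knockout (log2 fold change 4.65, standard error 0.23). Tcrg-C1 (ENSMUSG00000076749.2, chr13:19214103-19217024), the constant gene shared by Tcrg-V4 to Tcrg-V7, had 1.54 and 0.363 CPM in the WT libraries, against 16.4 CPM in either knockout library (log2 fold change 4.09, standard error 0.37). In both genes WT replicate 1 lay above WT replicate 2, and no WT library reached the knockout libraries. Without WT replicate 1 the log2 fold changes were 5.22 for Tcrg-C2 and 5.47 for Tcrg-C1, and without WT replicate 2 they were 4.24 and 3.40. The size of these differences, unlike their direction, thus turned on which WT library was kept.

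Trgv2 (ENSMUSG00000076754.2, chr13:19336573-19337167), the V segment of the Tcrg-C2 cluster, had 1.13 and 0.415 CPM in the WT libraries, against 20.3 and 21.9 CPM in the knockout. Its log2 fold change of 4.76 (standard error 0.30) became 5.64 without WT replicate 1 and 4.22 without WT replicate 2. Trdv4 (ENSMUSG00000076867.2, chr14:54074905-54075515), a delta V segment, had no count in WT, and 7 and 23 counts in Mek1/2-tKO, or 0.452 and 1.23 CPM. With both WT libraries set to the limit of 3 counts each, its mean level was at least 5.42-fold higher in Mek1/2-tKO, where the libraries differed widely from each other.

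The identity genes outside the receptor loci were expressed near or under the limit of detection. Sox13 (ENSMUSG00000070643.11, chr1:133382303-133424377), a transcription factor of early gamma-delta thymocytes and of the IL-17 programme, had 2 and 4 counts in WT and 24 counts in each Mek1/2-tKO library. Its levels of 0.103 and 0.207 CPM (WT) and of 1.55 and 1.28 CPM (Mek1/2-tKO) did not overlap, and the log2 fold change was 3.13 (standard error 0.74).

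Cd163l1 (ENSMUSG00000025461.11, chr7:140218267-140231145), which codes for a scavenger receptor of IL-17-producing gamma-delta T cells, had 0 and 8 counts in WT and 8 and 9 counts in Mek1/2-tKO. WT replicate 2, at 0.415 CPM, lay near the knockout libraries at 0.517 and 0.479 CPM. Zbtb16 (ENSMUSG00000066687.5, chr9:48654297-48836222) codes for PLZF, the regulator of innate-like T cells such as NKT cells and some gamma-delta subsets, and had no count in WT and 2 and 1 counts in Mek1/2-tKO. All of these lie within what a count of 0 allows, and no fold is given.

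**Figure D1:**
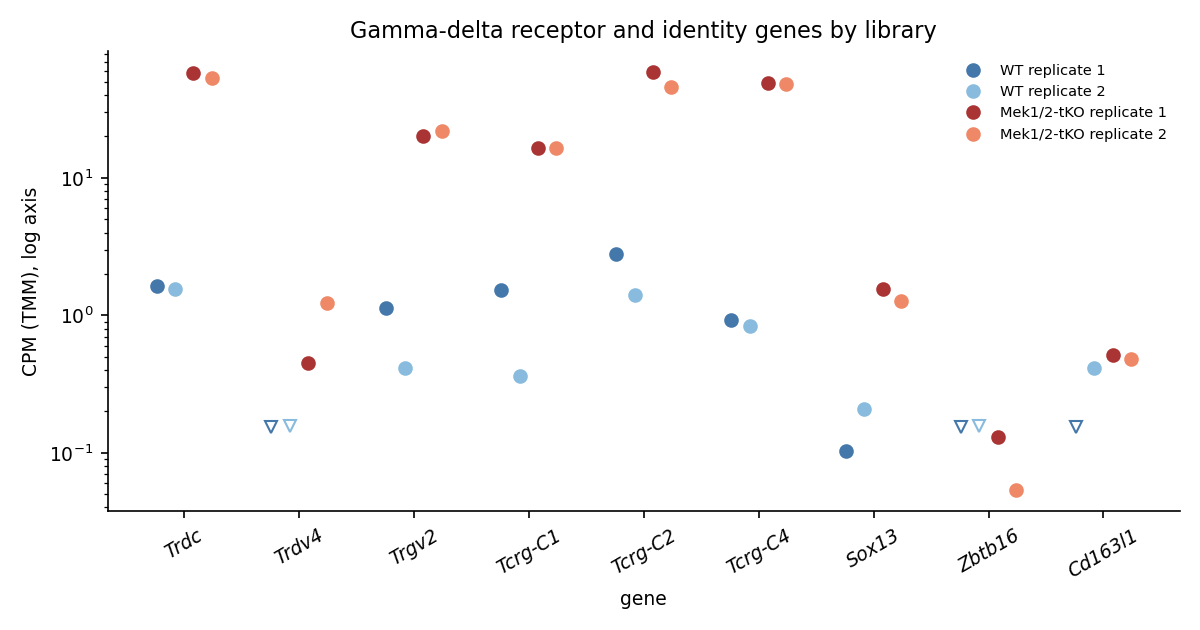
Level of the 9 genes in each library (CPM after TMM, log axis), with blue points for the WT and red points for the Mek1/2-tKO libraries and open triangles at the 3-count limit for libraries with no count. The 5 receptor genes that entered the fit lay at 0.363 to 2.77 CPM in WT and at 16.4 to 59.2 CPM in Mek1/2-tKO, whereas Trdv4, Sox13, Zbtb16 and Cd163l1 stayed at or under 1.55 CPM in all libraries.

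The 9 genes together amounted to 8.11 and 5.19 CPM in the WT libraries, against 206 and 189 CPM in the knockout. Over the 6 that entered the fit, which are not all members, the median log2 fold change was 4.70, beside 0.02 over all genes tested.

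Genes were set against each other per kilobase of annotated exon, a scale that depends on the annotated length, which is 3865 bases for Trdc. Tcrg-C2 led in the knockout with 64.7 and 50.3 CPM per kb. Tcrg-C4 followed with 49.8 and 48.6 CPM per kb, a distance smaller than the spread between the Tcrg-C2 libraries. Trgv2 stood at 41.3 and 44.7 CPM per kb. Tcrg-C1 (17.8 and 17.7) and Trdc (15.0 and 13.9) came next on this scale and differed from each other by more than their libraries did. In WT, Tcrg-C2 (3.03 and 1.53 CPM per kb) lay above Tcrg-C4 (0.938 and 0.843) and Trdc (0.425 and 0.403) without overlap, and Tcrg-C4 and Trgv2 (2.30 and 0.845) lay above Trdc. The WT ranges of Trgv2 and Tcrg-C1 (1.67 and 0.393) overlapped with each other and with those of Tcrg-C2 and Tcrg-C4.

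All rows of the gamma and delta loci were then read, 15 gamma and 11 delta segments in all, 20 of which are not among the 9 genes. Of the 26 segments, 3 had no count in any library, 11 had counts in Mek1/2-tKO only, and none had counts in WT only. Some of the 11 rest on few counts, such as 2 of Tcrg-V5 and 10 of Tcrg-V7. The share of such rows over all genes counted was not computed, so nothing is read from these numbers of segments. The 15 gamma rows summed to 133 and 60 counts in WT and to 2389 and 2642 counts in Mek1/2-tKO, and the 11 delta rows to 51 and 41 counts and to 1066 and 1194 counts. Of the 20 other segments 8 entered the fit, and all 8 were called higher by edgeR, where 19.3% of all genes tested were called higher and 35.8% in either direction. Several of the 8, such as Tcrg-V3 and Tcrg-C3 with no WT count, passed the filter through the knockout libraries alone, which fixed their direction. All of these rows also come from the comparison in which Trdc was picked, so nothing is read from that count.

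Among the gamma rows with no member, Tcrg-V1 had 8 and 0 counts in WT and 66 and 54 in Mek1/2-tKO. Its joining segment Trgj4 had 1 and 0 counts in WT and 21 and 30 in Mek1/2-tKO, a ratio of 57.7 with a 95% counting interval of 9.90 to 2323. In WT replicate 2 neither segment had a count, although Tcrg-C4 had 16 there.

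Tcrg-V4, the V segment of adult IL-17-producing gamma-delta cells in one common nomenclature, had 0 and 2 counts in WT and 20 and 32 in Mek1/2-tKO (ratio 29.4, interval 7.75 to 249). A gene on the other strand, Gm31887, shares 18.5% of its exon bases. The V segments of the fetal waves were nearly silent, with no count of Tcrg-V6 in any library and 2 counts of Tcrg-V5 in Mek1/2-tKO replicate 1 alone. Tcrg-V7 had 10 counts in Mek1/2-tKO replicate 2 and none elsewhere. Tcrg-V3 (15 and 13 counts) and its constant gene Tcrg-C3 (14 and 16 counts) had counts in the knockout libraries only, at least 5.37-fold and 5.67-fold higher than the 3-count limit of the WT libraries.

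**Figure D2:**
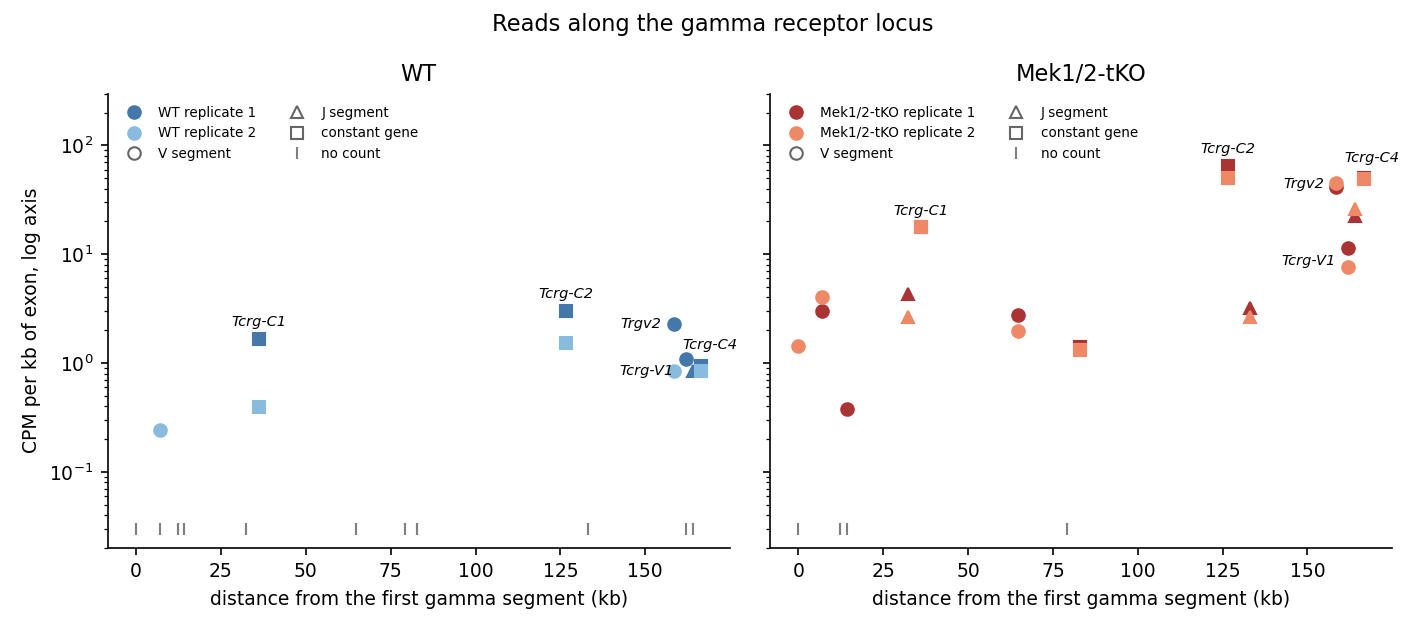
CPM per kb of exon (log axis) of each gamma segment against its distance in kb from the first gamma segment, in WT on the left and in Mek1/2-tKO on the right, with circles for V, triangles for J and squares for constant genes and ticks for segments with no count in a library. In both knockout libraries Tcrg-C2, Tcrg-C4 and Trgv2 were highest, Tcrg-V5 and Tcrg-V7 had counts in a single library each, and fewer segments had counts in WT.

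On the delta side, Trdv1 had 19 and 7 counts in WT and 103 and 86 in Mek1/2-tKO (log2 fold change 3.05, standard error 0.46). Trdv2-2 had 0 and 1 counts in WT and 13 and 20 in Mek1/2-tKO, a ratio of 37.3 with an interval of 6.25 to 1519, and Gm43647 on the other strand shares 26.4% of its exon bases. Trdv5, which lies beyond Trdc in the opposite orientation, had 0 and 1 counts in WT and 38 counts in each Mek1/2-tKO library. Trdc shares 47.3% of the exon bases of Trdv5, and whether the counting used strand is not given in the sources used here, so reads of these rows cannot be told apart where they overlap.

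Some V segments serve both the alpha and the delta chain. These 10 rows were added after their values had been seen. Their sum was 11.4 and 12.7 CPM in the WT libraries, against 20.7 and 20.0 CPM in the knockout, and of the 8 that entered the fit 3 were called higher and 2 lower, beside 19.3% and 16.4% of all genes tested, and nothing is read from so few calls. Trav13-4-dv7 had 16 and 30 counts in WT and 143 and 161 in Mek1/2-tKO (log2 fold change 2.90, standard error 0.33). Trav15-2-dv6-2 had 6 and 5 counts in WT and 57 in each Mek1/2-tKO library (3.53, standard error 0.53). Trav15-1-dv6-1 had 6 counts in each WT library and 25 and 33 counts in Mek1/2-tKO. Trav14d-3-dv8 went the other way, from 57 and 48 counts in WT to 1 and 8 in Mek1/2-tKO (-3.36, standard error 0.65), and so did Trav4-4-dv10 (65 and 88 counts against 23 and 31).

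The make-up of the gamma reads was compared between libraries as shares of counts, with exact Clopper-Pearson intervals of 95% that cover counting error only. They are too narrow if the reads of a pair were counted separately. Tcrg-C2 took 52.9% (42.8 to 62.9) and 54.0% (39.3 to 68.2) of the constant gene counts in WT, and 47.1% (44.9 to 49.4) and 41.4% (39.3 to 43.5) in Mek1/2-tKO. Tcrg-C4 took 17.6% (10.8 to 26.4) and 32.0% (19.5 to 46.7) in WT, and 39.1% (36.9 to 41.3) and 43.1% (41.0 to 45.3) in Mek1/2-tKO. Tcrg-C1 took 29.4% (20.8 to 39.2) and 14% (5.82 to 26.7) in WT, and 13.1% (11.6 to 14.6) and 14.7% (13.2 to 16.3) in Mek1/2-tKO. The intervals of WT replicate 1, with 102 counts in all, left out both knockout shares of Tcrg-C4 and of Tcrg-C1, whereas those of WT replicate 2, with 50 counts, took them in. Both WT shares of Tcrg-C4 lay under both knockout shares, and the shares of Tcrg-C1 overlapped between the genotypes. With 2 libraries on each side, the smallest two-sided p of an exact permutation test is 0.333.

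Trgv2 took 73.3% (54.1 to 87.7) and 80.0% (44.4 to 97.5) of the gamma V counts in WT, of 30 and 10 counts in all, and 75.3% (70.9 to 79.4) and 79.1% (75.3 to 82.5) in Mek1/2-tKO, of 417 and 521 counts. Its share was alike in value in all 4 libraries, although the WT intervals are wide. Tcrg-V1 took 15.8% (12.5 to 19.7) and 10.4% (7.88 to 13.3) in Mek1/2-tKO, and Tcrg-V4 took 4.80% (2.95 to 7.31) and 6.14% (4.24 to 8.56). Trdv1 took 63.6% (55.7 to 71.0) and 50.3% (42.6 to 58.0) of the counts on delta-only V segments in Mek1/2-tKO, and Trdv4 took 4.32% (1.75 to 8.70) and 13.5% (8.72 to 19.5). Trdv5 took 23.5% (17.2 to 30.8) and 22.2% (16.2 to 29.2). Some of the Trdv5 counts may be reads of Trdc, which shares 47.3% of its exon bases, so all these delta shares are uncertain beyond their intervals. The WT libraries held 19 and 9 such counts, too few for shares to be set beside these.

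**Figure D3:**
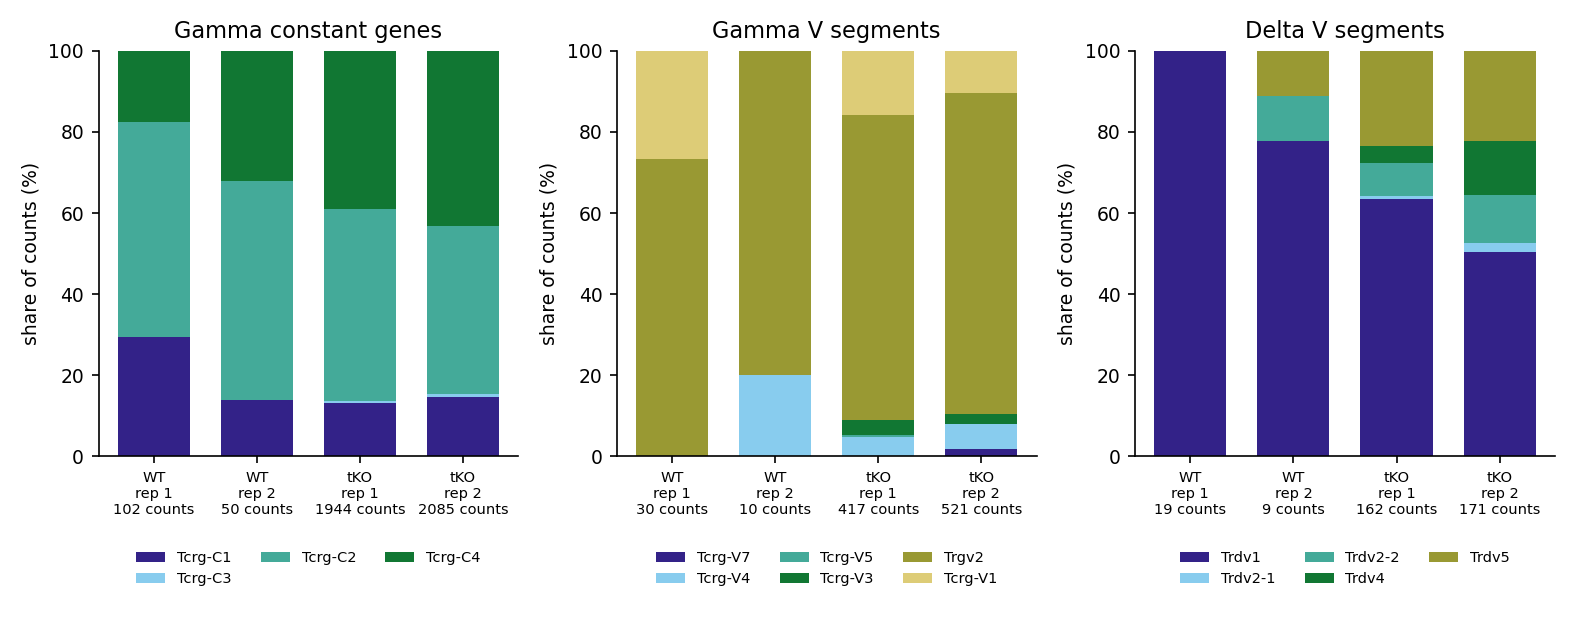
Share of counts (%) of each gamma constant gene, gamma V segment and delta-only V segment in each library, with the total count of each bar under it. In the Mek1/2-tKO bars Trgv2 filled 75.3 and 79.1% of the gamma V counts, and Tcrg-C2 and Tcrg-C4 together filled most of the constant gene counts, while the WT bars rest on 9 to 102 counts.

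V segments were also read per kb against the constant gene of their cluster. Trgv2 reached 63.8 and 88.9% of the level per kb of Tcrg-C2 in Mek1/2-tKO, and 75.8 and 55.2% in WT. Tcrg-V1 reached 22.9 and 15.8% of that of Tcrg-C4 in Mek1/2-tKO, and 117 and 0% in WT. The sum of Tcrg-V4 to Tcrg-V7 reached 19.2 and 30.8% of Tcrg-C1 in Mek1/2-tKO, and 0 and 62.0% in WT. The WT ratios of Tcrg-V1 and of Tcrg-V4 to Tcrg-V7 rest on at most 8 V counts per library and spread too widely to be set beside those of the knockout. Those of Trgv2 rest on 22 and 8 V counts, and their range overlapped with that of the knockout. Tcrg-V3 stood at 2.75 and 1.96 CPM per kb in Mek1/2-tKO, above Tcrg-C3 at 1.39 and 1.31 CPM per kb.

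The gamma-delta constant RNA was set against that of the alpha-beta receptor on the same scale. Trdc made up 0.181 and 0.164% of the summed level per kb of Trdc and Trac in WT, and 10.4 and 10.8% in Mek1/2-tKO. The gamma constant genes made up 0.654 and 0.344% of the sum with Trbc1 and Trbc2 in WT, and 12.8 and 13% in Mek1/2-tKO. In every library the share from the gamma locus lay above that from the delta locus. These shares have different partner genes and depend on annotated exon length, which is 3865 bases for Trdc and 650 to 985 for the gamma constant genes. Nothing is therefore read from their order. The size of the shares depends on length too. Without scaling by length, Trdc stood at 57.9 and 53.6 CPM in Mek1/2-tKO, beside 121 and 107 CPM of Trac, which has 935 annotated bases. Trac, the alpha constant gene, was itself lower in Mek1/2-tKO (log2 fold change -0.98, standard error 0.09, called by edgeR), whereas Trbc1 (0.16, adjusted p = 0.143 by edgeR) and Trbc2 (-0.03, adjusted p = 0.782 by edgeR) were not called. Most receptor constant RNA in the knockout libraries was still that of the alpha and beta chains.

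**Figure D4:**
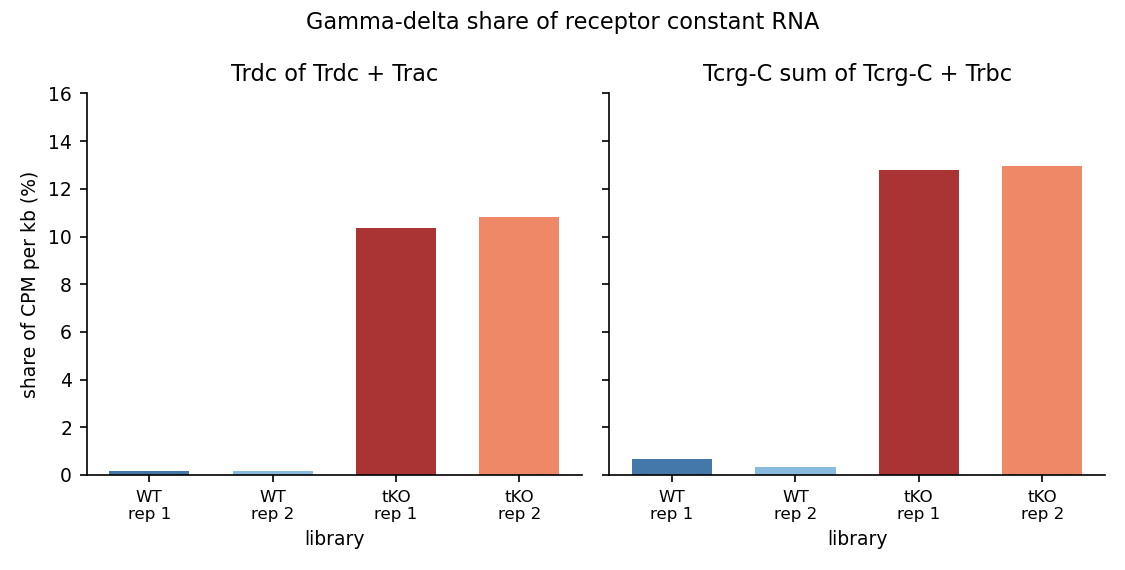
Share (%) of Trdc in the summed level per kb of Trdc and Trac (left) and of the 4 gamma constant genes in their sum with Trbc1 and Trbc2 (right), as bars for each library. The bars stood under 1% in WT and at 10.4 to 13% in Mek1/2-tKO.

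Genes of the functional programmes of gamma-delta T cells were read from lists that leave out the 9 members, and each list stands beside a background of 19.3% of genes called higher and 16.4% called lower. Nothing particular to gamma-delta cells is read from these counts, since the lists hold genes that other lymphocytes share. Of 19 genes of the IL-17 programme, 17 entered the fit, and 12 were called higher and 0 lower (edgeR), with a median log2 fold change of 2.71. At an unadjusted p under 0.05, 1 gene was lower, and DESeq2 called 0 lower. Il17a, the cytokine itself, had 56 and 20 counts in WT and 753 and 848 in Mek1/2-tKO (log2 fold change 4.58, standard error 0.26). Il17f and Il22, named after their values had been seen, were higher by 5.91 and 5.08 on the log2 scale. Some of the 12 called genes passed the filter through the knockout libraries alone, which fixed their direction. Il17f, with 2 and 6 counts in WT, was among them. Of the most abundant genes of the list, Il18r1 (2.97), Serpinb1a (2.71) and Blk (2.76) were called higher, and Blk, a kinase of these cells, is also a kinase of B cells. The factors Maf (0.55, adjusted p = 0.149 by edgeR) and Rora (-1.01, adjusted p = 0.0617 by edgeR) were not called, and Scart2, listed as 5830411N06Rik and named after its values had been seen, had no count in WT and 2 and 21 counts in Mek1/2-tKO.

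All 17 genes of the IFN-γ and cytotoxic programme entered the fit, of which 12 were called higher and 1 lower, with a median log2 fold change of 2.499. Ifng rose from 124 ± 4.32 to 1913 ± 198 CPM (SD, n = 2 each, log2 fold change 3.95), and Gzmb, a granule protease, from 1370 ± 20.1 to 4713 ± 386 CPM (1.78). Nkg7 (2.72) and Ly6c2 (2.87) were also called higher. Tbx21, the gene of the T-bet factor of this programme, was at 135 ± 1.63 CPM in WT libraries, at 115 ± 10.2 CPM in those of Mek1/2-tKO, and was not called, nor was Il2rb (-0.25), since both missed the fold threshold. The gene called lower was Il12rb2 (-1.71), the IL-12 receptor chain, named after its value had been seen. NK cells and CD8 T cells use this programme too, and 3 of its genes are also in the NK list.

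The regulators of gamma-delta development moved in both directions. Of 20 genes 18 entered the fit, 4 were called higher and 8 lower, and the median log2 fold change was -0.62. Nr4a1, an early gene of receptor signalling, fell from 275 ± 6.69 to 82.0 ± 1.80 CPM (log2 fold change -1.74), Cd5, whose level follows receptor signal strength, from 376 ± 11.3 to 128 ± 4.58 CPM (-1.55), and Tcf7, the TCF-1 factor, from 166 ± 14.1 to 66.8 ± 7.72 CPM (-1.31). Id2, an inhibitor of E proteins, rose (1.66). The E protein gene Tcf3 (-0.33) and Relb (0.28) did not reach the fold threshold, and Rag2, needed for rearrangement, had no count in any library.

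**Figure D5:**
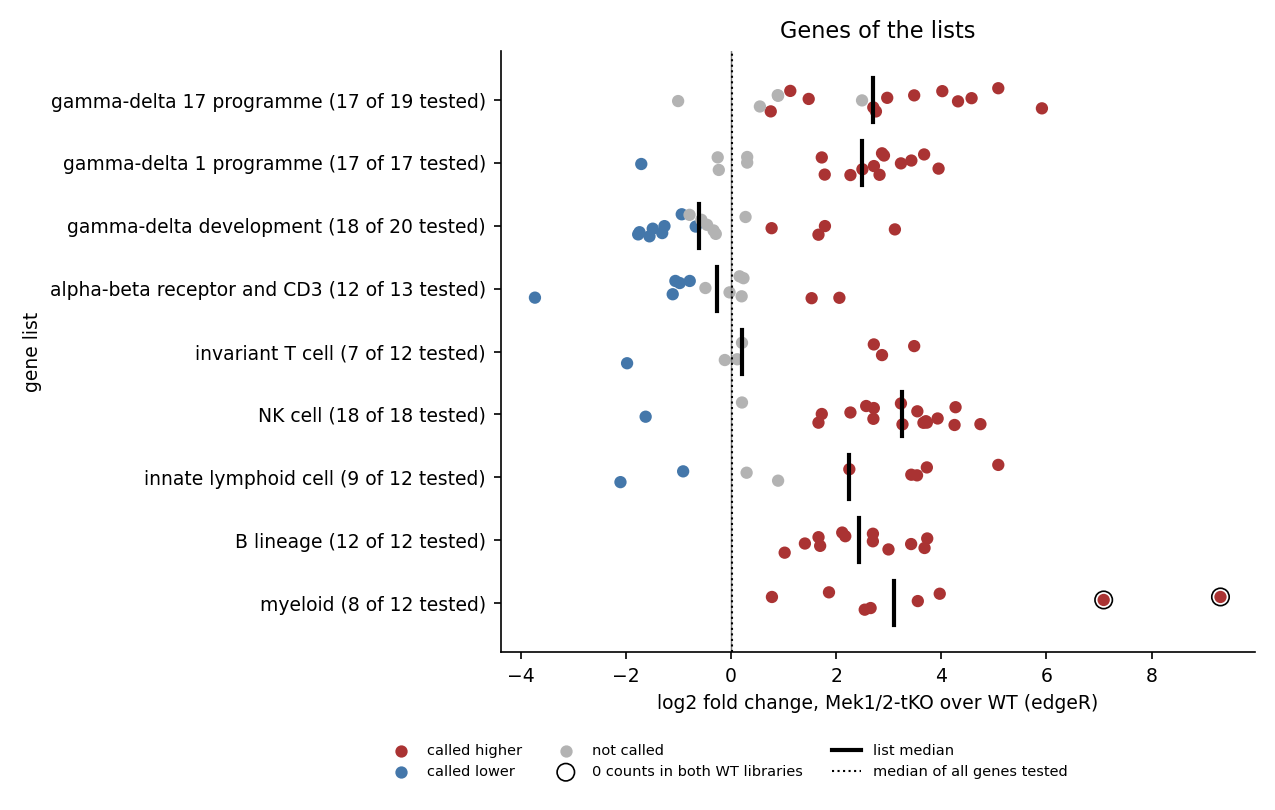
Log2 fold change (Mek1/2-tKO over WT, edgeR) of each tested gene in 9 lists, in red for genes called higher, blue for genes called lower and grey for genes not called, with bars at the list medians, a dotted line at the median of all genes tested and rings around genes with no count in WT, whose fitted values are no measure of size. The medians ran from -0.62 in gamma-delta development to 3.25 in the NK list.

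Marker genes of other cells that could carry gamma or delta RNA, or share a culture with such cells, were read next. The summed levels of the NK, B-lineage, myeloid and invariant T cell lists were higher with the 9 genes. That of the innate lymphoid list was lower, but most of it was Il2ra, and 5 genes of that list were called higher and 2 lower. Of 18 NK genes all entered the fit, and 16 were called higher and 1 lower, the 1 being Itga2 (-1.63), named after its value had been seen, a call that DESeq2 did not make and that was lost with any of the 4 libraries left out. Their summed level lay at 92.7 to 93.8 CPM in WT and at 508 to 566 CPM in Mek1/2-tKO, with Prf1 (2.57), Gzma (2.27), Eomes (1.73) and Klrk1 (3.23) as the most abundant genes called, and Klra1 not called (0.21, adjusted p = 0.716 by edgeR). Ncr1, a defining NK gene named after its values had been seen, had 15 and 16 counts in WT and 178 and 185 in Mek1/2-tKO. Several of the 16 passed the filter through the knockout libraries alone, which fixed their direction. Klra8, named after its values had been seen, was among them, with 4 and 5 counts in WT. Nothing is therefore read from the number of NK genes called. The part of NK cells in the gamma and delta counts was not tested.

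Of 12 innate lymphoid genes 9 entered the fit, 5 called higher and 2 lower, with a median log2 fold change of 2.25. The summed level was lower in the knockout (434 to 447 CPM) than in WT (696 to 705 CPM). Most of that sum was Il2ra (-0.91), the IL-2 receptor chain that activated T cells carry as well. Il2ra stood at 657 and 649 CPM in WT and at 346 and 348 CPM in Mek1/2-tKO. The sum thus followed Il2ra and says little of the other genes. Il22 (5.08) and Il1rl1 (3.43) were called higher and Gata3 (-2.10) lower, Ahr was not called (0.30), and Nmur1, a marker of type 2 innate lymphoid cells, had no count in any library. Of 12 invariant T cell genes 7 entered the fit, with 3 called higher and 1 lower and a summed level of 444 to 460 CPM in WT and 607 to 692 CPM in Mek1/2-tKO. Its defining receptor segments were at or near 0: Trav11, Trav11d and Traj33 had no count in any library, and Trav1, named after its values had been seen, had 6 and 14 counts in WT and none in Mek1/2-tKO. Traj33 has only 57 bases, and whether reads of Trav11 and Trav11d can be placed uniquely was not examined. No absence of invariant T cell RNA is read from these zeros. Slamf1 was lower (-1.98), Cxcr6 (3.48), Klrb1c (2.72) and Ly6c2 were higher, and Slamf6 (0.21) and Cd44 (-0.12) were not called.

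All 12 B-lineage genes were called higher (median 2.44), with Ighm (2.17), Igkc (2.70), Cd79b (3.73) and Cd79a (3.43) as the most abundant. Of 12 myeloid genes 8 entered the fit and all 8 were called higher, with a summed level of 5.08 to 5.71 CPM in WT libraries, against 27.7 to 32.9 CPM in the knockout. Their median was 3.10, or 2.61 with the genes that had no WT count (2 of them) set to their bound. Lyz2 (3.97), Cd68 (0.78) and Itgax (2.66) were among these, Adgre1 had no count in WT and 66 and 83 counts in Mek1/2-tKO, and the granulocyte marker Ly6g had none in any library. Myeloid genes with no or few WT counts, Adgre1 among them, passed the filter through the knockout libraries alone, which fixed their direction. DESeq2 called 7 of the myeloid genes higher, and nothing is read from these numbers of calls. Whether RNA of B-lineage or myeloid cells has a part in the difference of the 9 genes was not tested.

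Of 13 genes of the alpha-beta receptor and its CD3 partners, 12 entered the fit, with 2 called higher and 5 lower (median -0.26). Cd4 (-3.73), Trac, Cd3e (-1.06) and Cd247 (-0.79), the zeta chain that all T-cell receptors use, were lower. The other CD3 chains, Cd3d (0.20) and Cd3g (0.24), named after their values had been seen, were not called. The 2 called higher were the CD8 chains Cd8a (2.06) and Cd8b1 (1.53), whose summed level lay at 59.3 to 67.4 CPM in WT and 214 to 238 CPM in Mek1/2-tKO. Ptcra, the partner of the beta chain in early thymocytes, had no count in any library.

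Genes whose profile over the 4 libraries was most like that of Trdc were sought among 9605 candidates whose average log2 CPM was 3 or more, by the distance between centred log2 CPM values. The nearest was Apoe, a lipoprotein gene best known from macrophages, at a distance of 0.117, with 7.96 and 8.30 CPM in the WT libraries, against 266 and 262 CPM in the knockout. Ifitm1 (0.245), an interferon-induced gene, Ccl3 (0.384), a chemokine gene, Car1 (0.416), a carbonic anhydrase gene, and Cyp4f18 (0.470) followed. With 2 libraries per genotype, such a likeness amounts to a like difference between the genotypes, and no shared function is read from it.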

How the data were processed

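RNA of 2 WT and 2 Mek1/2-tKO cultures was prepared with a stranded mRNA kit and sequenced as read pairs of 150 nucleotides. The authors removed adaptors and low-quality bases with Trimmomatic 0.36, mapped the reads to GRCm38 with a mapper written as STRA, counted the uniquely mapped reads of each gene by featureCounts (Subread 1.5.1), and deposited the raw counts of 54752 genes per library, with no normalization. The annotation release, the strandedness chosen for counting and the handling of read pairs in counting are not given in the sources used here. Of the identifiers, 53861 matched GENCODE M21 in version, and all 53861 had the same exons there. Symbols were found for 54723.

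The quasi-likelihood test of edgeR 4.0.16 (R 4.3.3) was run with filterByExpr, TMM factors, the robust option and genotype as the only term. Adjustment was Benjamini-Hochberg over 14330 genes, and calls needed an adjusted p under 0.05 together with a 1.5-fold difference. On simulated counts of this comparison with 14070 genes tested, edgeR recovered 200 of 200 well-counted genes changed by a log2 value of 2 and called 0 unchanged genes, and DESeq2 1.42.0 recovered 200 and called 0. The simulation gave every gene the same dispersion and changed only those 200, unlike the real data. It shows that the code runs properly and gives no error rate for this comparison. Replicates differed by more than sampling noise (chi-square per gene 4.07 in WT and 10.1 in Mek1/2-tKO). Sequences and coordinates were read from GRCm38 and GENCODE M21 with Python 3.11.15, pandas 2.3.3 and Biopython 1.88, intervals came from scipy 1.17.1 and figures from matplotlib 3.10.9. Alternatives were DESeq2, its size factors, scaling by library size, no filter or a filter of 10 counts per library, the replicate number as a block, no fold threshold, and each library left out.

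The 9 members and all gene lists were chosen with earlier results of these data known. Given by name were the members, every gamma or delta row with at least 10 counts in a library, in each list the 4 called and the 2 uncalled genes of highest average level and those at 0 in all libraries, Cd4, Cd8a, Cd3e, Trac, Trbc1, Trbc2, Il17a, Map2k1 and Map2k2, the 5 genes nearest Trdc in profile, and the 3 nearest tested genes on each side of the loci. A few others are marked where they appear. The list counts take in a gene whose own values are not reported here. Rows of Trdmt1 and Trdn, which match the symbol pattern, are no receptor segments and were left out.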

Additional observations from a re-analysis of the deposited data

How the results depend on the processing

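Over the alternatives, 307 values were recomputed, of which 282 moved by less than the spread or the 1.5-fold margin, 25 moved by more and 0 reversed. With the libraries kept, the median log2 fold change of the members that entered the fit lay between 4.62 and 5.13. The value of 5.13 came with at least 10 counts required in every library, which leaves Trdc, Tcrg-C2 and Tcrg-C4, and under that filter 3 receptor segments were called higher in place of 13, 1 gene of the IL-17 programme was lower, 2 development genes were higher, 0 NK genes were lower and 3 myeloid genes were higher, since fewer genes were tested. Without the fold threshold 3903 genes in all, and 3 genes of the IFN-γ programme, were lower. Scaling by library size alone put 1 gene of the IL-17 programme lower and the median of all genes at -0.07. With no filter 2 invariant T cell genes were lower. DESeq2 called 0 NK genes lower.

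Leaving out each library in turn gave medians of the members of 4.23 (without WT replicate 2) to 5.34 (without WT replicate 1), 11 to 14 receptor segments higher, 2119 to 2627 genes lower in all, 0 to 1 genes of the IL-17 programme lower, the 1 without Mek1/2-tKO replicate 1, and 0 NK genes lower. In the same fits the IFN-γ programme had 1 gene lower, development had 3 to 4 genes higher, the invariant list had 1 lower and the myeloid list had 6 to 7 higher. The log2 fold changes of Trdc (5.06 to 5.17) and Tcrg-C4 (5.70 to 5.85) moved least, and those of Trgv2 (4.22 to 5.64), Tcrg-C1 (3.40 to 5.47) and Tcrg-C2 (4.24 to 5.22) moved with the WT library left out. Sox13 ranged from 2.72 to 3.69.

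The genotypes share replicate numbers, but the deviations of same-numbered libraries correlated at -0.03 across genes, and nothing says that a number marks a shared mouse or day. With the replicate block, 13 segments were higher, the median of the members was 4.72, and 0 NK genes were lower, the call on Itga2 being lost. The WT counts, 9 to 102 for whole classes of segments, set the limit of what can be read on V segment use in WT.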

Other observations

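Of the nearest tested genes on both sides of the receptor loci, 3 on each side, 3 in all were called higher and 1 lower, where 19.3% of all genes tested were called higher and 16.4% lower. Beyond the gamma locus (chr13:19178024-19352756), Stard3nl, 4.92 kb past Tcrg-C4, was higher in Mek1/2-tKO (log2 fold change 0.75, standard error 0.13, called by edgeR), with 20.8 and 19.4 CPM in WT and 34.4 and 33.3 CPM in Mek1/2-tKO. Epdr1 was also called (1.96, standard error 0.73), on 9 and 4 counts in WT and 30 and 14 in Mek1/2-tKO, and Gm5446 was not (-0.02). On the other side Vps41 (-0.08), Vdac3-ps1 (0.01) and Yae1d1 (0.22) were not called.

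Around the alpha and delta locus (chr14:52427928-54224206), Dad1, a gene of protein glycosylation 11.3 kb past the locus, was called higher (0.79, standard error 0.09), with 149 and 138 CPM in WT and 269 and 226 CPM in Mek1/2-tKO. Abhd4 (0.43) and Gm43305 (-0.01) behind it were not called. Before the locus Sall2 was called lower (-2.15, standard error 0.32), and Mettl3 (-0.04) and Gm4742 (0.82) were not called.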
